A study of Saccharomyces cerevisiae with 6 samples.

Results

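The mevalonate pathway genes are 10 genes of budding yeast, chosen by name and described here in the order in which their enzymes act, from acetyl-CoA to squalene. They are ERG10, ERG13, HMG1, HMG2, ERG12, ERG8, MVD1, IDI1, ERG20 and ERG9. All 10 were found among the 5656 genes measured by a probe set with 1 annotated gene, through 13 probe sets, of which 4 belong to ERG12. The signals come from 6 single-colour oligonucleotide arrays. The 3 mutant arrays are of a strain labelled H2B 3-32, in which histone H2B is altered at residues 3 to 32, a stretch of its amino-terminal tail, and the 3 wild-type arrays are of a wild-type strain. Both strains were grown in the rich medium YPD to mid-log phase (OD600 of 0.5 to 0.7), with no other treatment named. Wild-type array 3 also served as the wild type of other H2B mutants, per its label. The labels do not name the strain background or how the altered H2B gene is carried.

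Cells build all isoprenoids of yeast from acetyl-CoA through mevalonate. HMG-CoA reductase makes mevalonate and is the main point of control, through feedback on its genes and on the stability of its Hmg2 form. Later steps turn mevalonate into isopentenyl and farnesyl diphosphate. Squalene synthase then commits farnesyl diphosphate to ergosterol, while other enzymes use these intermediates for ubiquinone, heme A, dolichol, tRNA modification and protein prenylation. In yeast, Hap1 and heme favour HMG1 in air, and HMG2 is the form favoured at low oxygen.

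HTB1, an H2B gene, was compared between the strains first. Its signal cannot show which residues of H2B are altered. HTB1 had signals of 16.1, 19.4 and 15.2 on mutant arrays, against 1372, 1138 and 1191 on wild-type arrays (limma adjusted p = 2.17e-06). Its mean log2 value of 4.29 in the mutant is under the limit of 4.43 below which a gene's mean over all arrays was left out as dim, so it passed that filter through wild type and no exact fold is given. No source used here places its probes within the gene. Median signals were 28.7 to 40.5 on mutant arrays and 30.6 to 40 on wild-type arrays, and array 3 of each group was the highest. Array 3 also stood apart in its spiked hybridisation controls, which averaged 196 on mutant and 203 on wild-type array 3, against 682 to 899 on the other arrays. Its brightest signals were 2650 in the mutant and 3180 in wild type, against 6020 to 8360 on the other arrays. The summed signal of 6 genes specific to the a mating type was 2620, 2238 and 1834 on mutant arrays 1 to 3, against 3040, 3217 and 2284 on wild-type arrays 1 to 3. It was lower in the mutant in each pair, although the ranges overlap. Of those 6 genes, BAR1, AGA2 and MFA1 fell with the replicate number as a block (3 of 6, 0 without it), where 1.39% of all tested genes fell. AGA2 and MFA1 passed narrowly (limma adjusted p = 0.0458 and 0.0466), and the probe set of MFA1 may share signal. Mean log2 differences were below 0 for 5 of the 6. That of STE6 was 0.14, with -0.24, -0.26 and 0.93 in pairs 1 to 3. The alpha-type receptor gene STE3 was at 3.4 to 6 in the mutant and 5 to 6.5 in wild type. SAG1, the other alpha-type gene measured, was brighter, at 17.8 to 34.2 in the mutant and 25.7 to 35.8 in wild type. Its log2 difference of -0.26 did not pass with the block (limma adjusted p = 0.39). The summed signal of 6 genes of stress and later growth was 261 to 358 in the mutant and 328 to 381 in wild type. The part of these markers in the results below was not tested.

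None of the mevalonate genes changed between mutant and wild type at an adjusted threshold of 0.05. With limma on the group only, 0 of 10 passed and 0 of 10 had an unadjusted p under 0.05, where 0.0221% and 2.5% of the 4525 tested genes did. With the replicate number as a block, 0 of 10 passed against 2.28% of all tested genes. In that fit 3 of 10 had an unadjusted p under 0.05 (ERG13, ERG12 and ERG9, all higher in the mutant), against 17.3% of all tested genes in either direction and 5.17% in that one. The mean log2 differences, mutant minus wild type, lay between -0.21 and 0.31. For 5 of the 10 genes the difference was smaller than 0.1 in size (1879 of the 4525 tested genes). For 4 it was at least 0.2 (29.2% of all tested genes). The 4 were ERG12, ERG13 and ERG9, with higher means in the mutant, and IDI1, with a lower mean. In a bulk culture, a change in every cell and a change in some of the cells cannot be told apart.

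**Figure D1:**
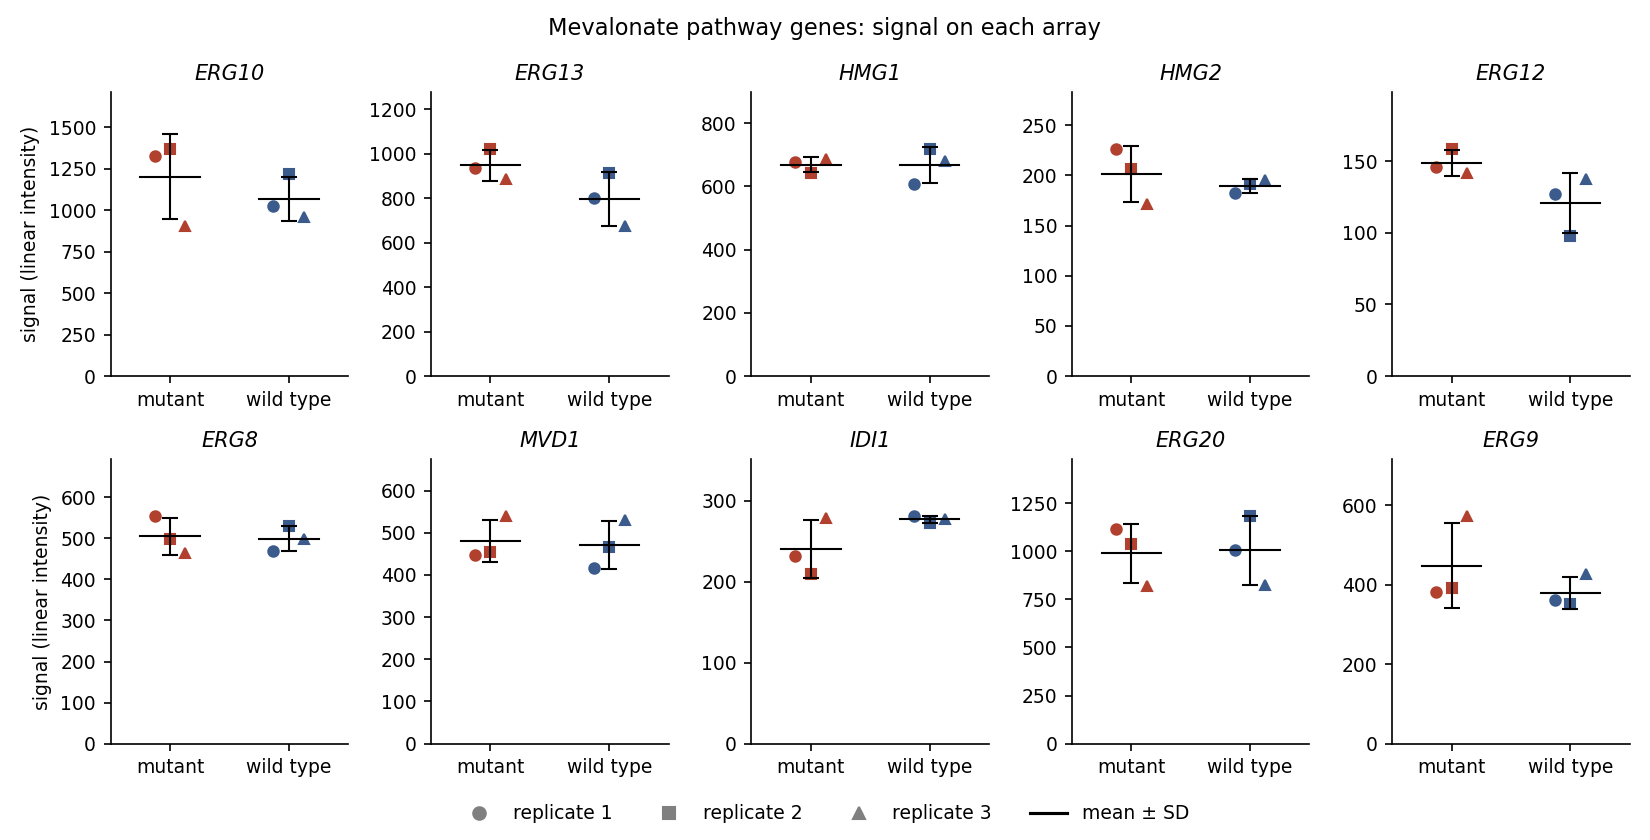
Signal of each mevalonate gene on each array (linear intensity, axes from 0), with mutant arrays on the left and wild-type arrays on the right of each panel; symbols mark the replicate number, and bars show the mean and SD over 3 arrays. The groups overlap in all panels except ERG12, where mutant arrays lie between 141.6 and 158.5 and wild-type arrays between 97.7 and 137.7.

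The pathway opens with ERG10, the acetoacetyl-CoA thiolase that joins a pair of acetyl-CoA molecules. ERG10 had signals of 1327, 1369 and 906 on mutant arrays 1 to 3, against 1024, 1219 and 959 on wild-type arrays 1 to 3. Mutant arrays 1 and 2 were the highest and mutant array 3 the lowest of all, so the groups overlap. The mean log2 difference was 0.15 (SE 0.21, 95% interval -0.33 to 0.64). By same-numbered pair it was 0.37, 0.17 and -0.08.

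ERG13 encodes HMG-CoA synthase, which adds a further acetyl-CoA. Its signals were 937, 1023 and 886 on mutant arrays 1 to 3, against 800, 915 and 673 on wild-type arrays 1 to 3. Each mutant array lay above the wild-type array of its number, although wild-type array 2 exceeded mutant array 3. ERG13 averaged 949 ± 68.8 in the mutant and 796 ± 121 in wild type (SD, n = 3 each). The log2 difference was 0.26 (0.23, 0.16 and 0.40 by pair). Its limma adjusted p rounded to 1 for the group only and was 0.192 in the blocked fit, the lowest of the 10 genes in that fit. The block narrowed the 95% interval to 0.05 to 0.47, from -0.11 to 0.64.

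HMG1 and HMG2 encode the 2 forms of HMG-CoA reductase, which reduces HMG-CoA to mevalonate. HMG1 had signals of 676, 642 and 686 on mutant arrays 1 to 3, against 606, 719 and 680 on wild-type arrays 1 to 3. The mutant arrays all fell inside the wild-type range, and the group means were equal at 668. The log2 difference was 0.00 (95% interval -0.30 to 0.30, or a fold of 0.813 to 1.23). Changes of HMG1 within this interval are not excluded with 3 arrays per group.

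HMG2 had signals of 227, 206 and 172 on mutant arrays 1 to 3, against 182, 191 and 196 on wild-type arrays 1 to 3. The wild-type arrays lay close together and inside the wider mutant range. HMG2 averaged 201 ± 27.8 in the mutant and 190 ± 6.81 in wild type (SD, n = 3 each), a log2 difference of 0.08 with a 95% interval of -0.25 to 0.40. The difference for HMG2 less that for HMG1 was 0.15, 0.27 and -0.20 in pairs 1, 2 and 3. Its sign was mixed, and it was not tested.

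ERG12, mevalonate kinase, adds the first phosphate to mevalonate. It had the largest mean difference of the 10 genes and was the 1 gene of the 10 with separate groups (mutant above wild type); groups were separate for 7.65% of the tested genes, and with the mutant on top for 2.65%. Its brightest probe set, which stands for the gene in the fits, read 146, 159 and 142 on mutant arrays 1 to 3, against 127, 97.7 and 138 on wild-type arrays 1 to 3. The difference was widest in pair 2, where the wild-type array was the lowest of all. The mean log2 difference was 0.31 (0.19, 0.68 and 0.04 by pair), with a limma adjusted p of 0.218 in the fit with the replicate block.

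The 4 probe sets of ERG12 did not give the same difference. Probe set 2757_g_at read 143, 155 and 129 on mutant arrays 1 to 3, against 91.3, 118 and 87.6 on wild-type arrays 1 to 3. Here too all mutant arrays were above all wild-type arrays, and the pairs were closer to each other, at log2 0.63, 0.39 and 0.54. Its name, like that of the brightest, 2758_s_at, marks possible signal from related sequences. Probe set 9435_at has no such mark and read 76.3, 90.5 and 163 on mutant arrays, against 67.8, 70.2 and 108 on wild-type arrays. It was higher in the mutant in each pair (0.16, 0.35 and 0.58), but array 3 of each group was far above arrays 1 and 2, so the groups overlap. Probe set 2756_at was dim, at 9.2 to 14.6 in the mutant and 8 to 16.6 in wild type, and was left out as such.

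A fit over all 5203 probe sets that passed the filter, chosen after the values were seen, called 0 of the 3 brighter ERG12 probe sets with the group only, where 0.0192% of all were called. With the replicate block it called 1, 2757_g_at (log2 0.52, 95% interval 0.29 to 0.75, limma adjusted p = 0.0369), where 1.33% of all were called. That call was lost when any replicate pair was left out. The limma adjusted p was then 0.063 without replicate 1, 0.111 without replicate 2 and 0.197 without replicate 3. In these fits the log2 difference of 2757_g_at was 0.47, 0.59 and 0.51, and each 95% interval lay above 0. The other ERG12 probe sets had adjusted p of 0.277 (2758_s_at) and 0.153 (9435_at). The call for ERG12 thus depends on which of its probe sets is read.

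**Figure D2:**
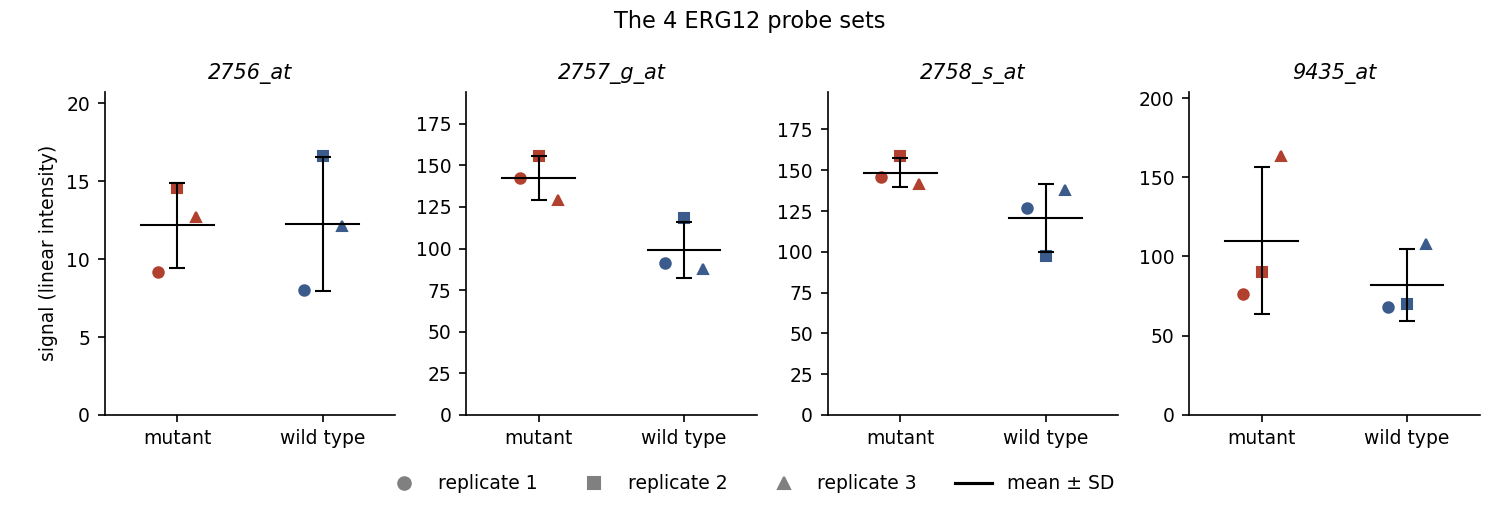
Signal of the 4 ERG12 probe sets on each array (linear intensity, axes from 0), mutant arrays on the left and wild-type arrays on the right, with symbols for the replicate number and bars for the mean and SD over 3 arrays. The groups separate for 2757_g_at and 2758_s_at and overlap for 9435_at and for the dim 2756_at.

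ERG8, phosphomevalonate kinase, adds the second phosphate. Its signals were 553, 499 and 464 on mutant arrays 1 to 3, against 468, 529 and 499 on wild-type arrays 1 to 3. The highest and the lowest array both belonged to the mutant. The mean log2 difference was 0.02, with a 95% interval of -0.28 to 0.32.

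MVD1, also called ERG19, encodes the decarboxylase that makes isopentenyl diphosphate. MVD1 read 448, 455 and 539 on mutant arrays 1 to 3, against 417, 466 and 531 on wild-type arrays 1 to 3. Same-numbered arrays lay close together and array 3 was the highest in each group. The log2 difference was 0.10, -0.03 and 0.02 by pair, and 0.03 on average (95% interval -0.31 to 0.37).

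IDI1, the isomerase that converts isopentenyl into dimethylallyl diphosphate, was the gene with the lowest mean difference. Its signals were 232, 210 and 279 on mutant arrays 1 to 3, against 281, 272 and 278 on wild-type arrays 1 to 3. The wild-type arrays were within a narrow range, mutant arrays 1 and 2 lay below it, and mutant array 3 lay inside it. IDI1 averaged 240 ± 35.5 in the mutant and 277 ± 4.29 in wild type (SD, n = 3 each). The log2 difference was -0.21 (-0.27, -0.37 and 0.01 by pair), with a limma adjusted p of 1, after rounding, for the group only and 0.294 with the block. Within replicates 1 and 2 alone it was -0.32 (limma adjusted p = 0.231), and the pair of replicate 3 allows no test of its own.

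ERG20, farnesyl diphosphate synthase, builds geranyl and then farnesyl diphosphate. ERG20 read 1115, 1038 and 817 on mutant arrays 1 to 3, against 1007, 1182 and 825 on wild-type arrays 1 to 3. Array 3 was the lowest in each group, and the ranges largely coincide. The mean log2 difference was -0.02 (95% interval -0.48 to 0.44), and by pair it was 0.15, -0.19 and -0.01.

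ERG9, squalene synthase, joins a pair of farnesyl diphosphate molecules and opens the branch to ergosterol. ERG9 had signals of 381, 391 and 572 on mutant arrays 1 to 3, against 361, 350 and 426 on wild-type arrays 1 to 3. Every mutant array was above the wild-type array of its number, but wild-type array 3 exceeded mutant arrays 1 and 2. The log2 difference was 0.22 (0.08, 0.16 and 0.42 by pair), with a limma adjusted p of 0.271 in the fit with the replicate block. With the group only, the log2 difference was 0.03 without mutant array 3 and 0.31 without wild-type array 3. With the block and without the pair of replicate 3 it was 0.12.

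**Figure D3:**
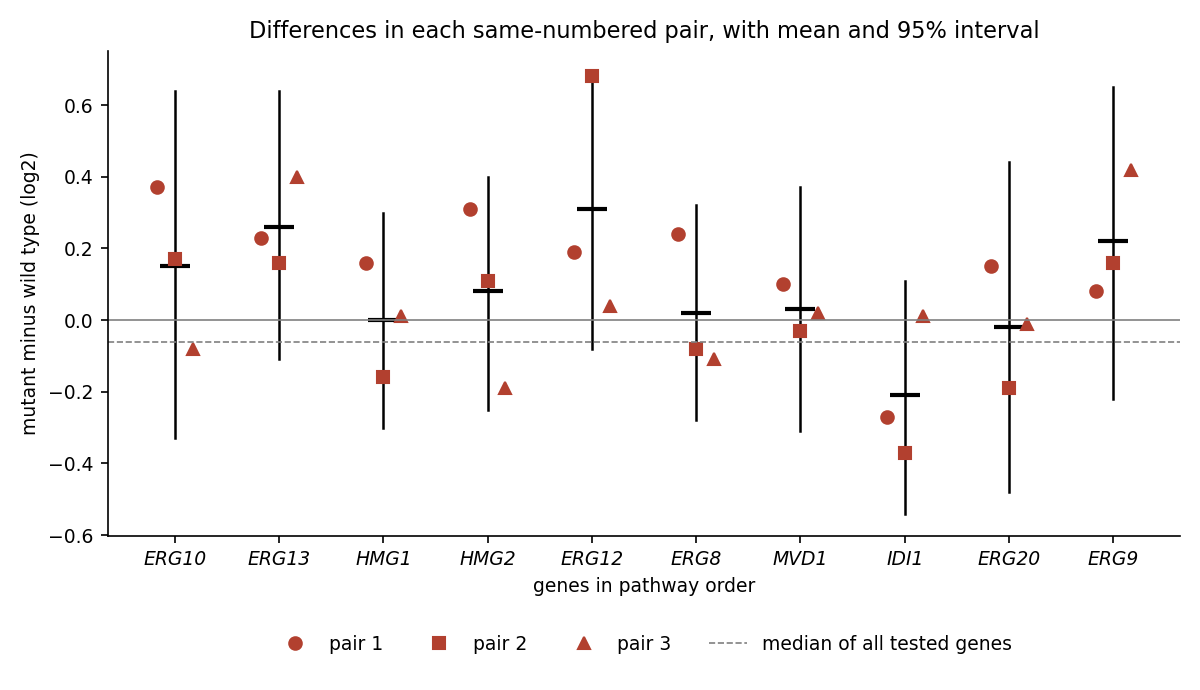
Difference of each gene, mutant minus wild type on the log2 scale, in the 3 same-numbered pairs (symbols), with the mean (bar) and the 95% interval of the fit with the group only (line); the dashed line is the median of all tested genes, -0.06. All 10 intervals include 0, and ERG13, ERG12 and ERG9 are above 0 in each pair.

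Across the 10 genes the median log2 difference was 0.05, against -0.06 over all 4525 tested genes. The mean difference was above 0 in 8 of the 10, while 37% of all tested genes had one above 0. The pairs did not look alike. In pair 1, 9 of 10 genes were higher in the mutant (40.4% of all tested genes), all except IDI1, and the median was 0.17. In pair 2, 5 were higher and 5 lower (36.5% of all higher), with a median of 0.04. In pair 3, 6 were higher and 4 lower (43.7% of all higher), with a median of 0.01. Of the 10 genes, 3 were higher in every pair (11.5% of all tested genes). A further 7 had mixed signs (2765 of the 4525 tested genes), and 0 were lower in every pair (1238 of the 4525).

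Much of the spread among arrays of 1 strain separated replicate 3 from replicates 1 and 2, and it was not of 1 sign over the 10 genes. ERG10, ERG13 and ERG20 were lower on array 3 than on arrays 1 and 2 in each group. For ERG20 the log2 gap was -0.39 in the mutant and -0.40 in wild type, and for ERG10 it was -0.57 in the mutant and -0.22 in wild type. MVD1, ERG9, HMG1 and IDI1 were higher on array 3 in each group. For ERG9 the gap was 0.56 in the mutant and 0.26 in wild type, and for MVD1 0.26 in the mutant and 0.27 in wild type. HMG2, ERG12 and ERG8 had gaps of opposite sign in the groups. Of all tested genes, 66.6% were higher on array 3 in both groups, 20.9% were lower in both and 12.6% had opposite signs. The 3 genes that were lower on array 3 in each group had the brightest probe sets, with wild-type mean signals of 796 to 1070 against 121 to 668 for the other 7, and array 3 also had the lower top signals given above. The median over all tested genes was 0.31 in the mutant and 0.27 in wild type. For ERG10, HMG1, ERG20, MVD1 and ERG9 the gap was larger in size in each group than their difference between strains. For HMG1 the gaps were small, at 0.06 in the mutant and 0.04 in wild type. The part of signal level in the gap was not tested.

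**Figure D4:**
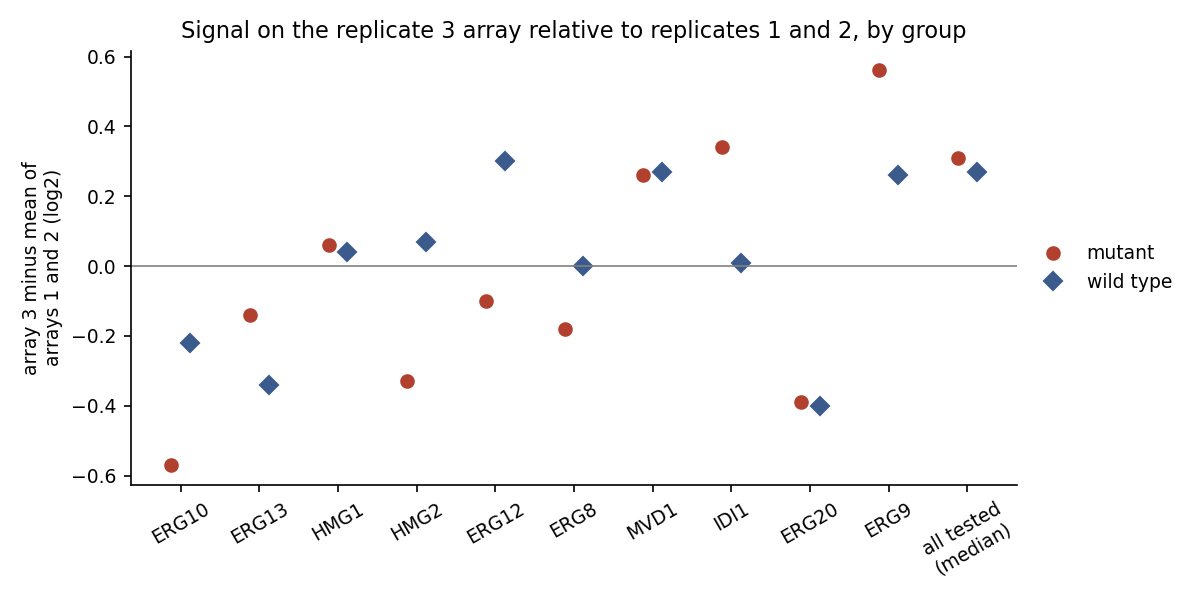
Signal on the array of replicate 3 less the mean of replicates 1 and 2 (log2), for the mutant (circles) and wild type (diamonds), for the 10 genes and as the median of all tested genes. ERG10, ERG13 and ERG20 lie below 0 in each group. MVD1 and ERG9 lie above 0, as does the median of all tested genes (0.31 in the mutant and 0.27 in wild type).

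Genes that feed the pathway, control it or use its products were described in the same way, by counts in the fit with the replicate block (0.884% of all tested genes rose and 1.39% fell in it). In all 5 of these lists, 0 genes passed with the group only. Of 8 tested genes of acetyl-CoA supply and use, 0 passed and 8 did not, with a median log2 difference of 0.06. The nearest to passing were PDC5, a pyruvate decarboxylase (221 ± 46.9 in the mutant and 176 ± 14.4 in wild type, SD, n = 3 each; log2 0.31, limma adjusted p = 0.135), and ACS2, the acetyl-CoA synthetase used on glucose (log2 -0.10, limma adjusted p = 0.628). Leaving out a pair, PDC5 had a difference of 0.40 without replicate 1, which passed (limma adjusted p = 0.0315), 0.21 without replicate 2 (limma adjusted p = 0.514) and 0.32 without replicate 3 (limma adjusted p = 0.413). PDC6 was left out as dim.

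Of 11 genes that take part in the degradation and feedback of HMG-CoA reductase, 0 passed, and the median was -0.09. DFM1, a Der1-like protein of the endoplasmic reticulum, had a log2 difference of -0.24 (limma adjusted p = 0.239). HRD1, the ubiquitin ligase that marks Hmg2 for degradation, had signals of 32, 33.2 and 39 on mutant arrays 1 to 3, against 42.3, 45 and 42.4 on wild-type arrays 1 to 3. All mutant arrays were below all wild-type arrays, but the difference of -0.30 did not pass (limma adjusted p = 0.271).

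Among other users of farnesyl and isopentenyl diphosphate, 1 of 11 tested genes fell, 0 rose and 10 did not pass, with a median of -0.14. The gene that fell was RAM2, the subunit shared by farnesyltransferase and the type I enzyme that attaches geranylgeranyl groups. RAM2 read 71.6, 76.7 and 91.2 on mutant arrays 1 to 3, against 121, 134 and 155 on wild-type arrays 1 to 3. Every mutant array was below every wild-type array, and the pairs gave nearly the same log2 difference (-0.74, -0.78 and -0.75). The limma adjusted p was 0.00133 with the block and 1, after rounding, without it. Leaving out a pair with the block, the limma adjusted p was 6.62e-05 without replicate 1 and 0.0323 without replicate 2. It was 0.0621 without replicate 3, which ends the call. The log2 difference was then -0.76, -0.74 and -0.76. RAM1, the other farnesyltransferase subunit, had a log2 difference of -0.03. SRT1, BET4 and LPP1 were left out as dim.

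Beyond squalene, 0 of 15 genes of ergosterol synthesis passed, and their median of 0.06 was close to that of the mevalonate genes. ERG5, the C-22 sterol desaturase, had a difference of -0.24 (limma adjusted p = 0.213) and ERG28, a scaffold protein of sterol synthesis, 0.21 (limma adjusted p = 0.264). Of 5 transcription factors that act on sterol genes, UPC2 and MOT3 were left out as dim and 0 of the other 3 passed. HAP1, the heme-responsive activator of HMG1, had a difference of 0.28 (limma adjusted p = 0.231) from a probe set that may share signal. By pair it was -0.05, 0.61 and 0.28. It was 0.45 without replicate 1, which passed (limma adjusted p = 0.00231), but 0.12 without replicate 2 (limma adjusted p = 0.754) and 0.28 without replicate 3 (limma adjusted p = 0.521). For ECM22, a sterol-responsive activator, it was -0.06 (limma adjusted p = 0.833).

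**Figure D5:**
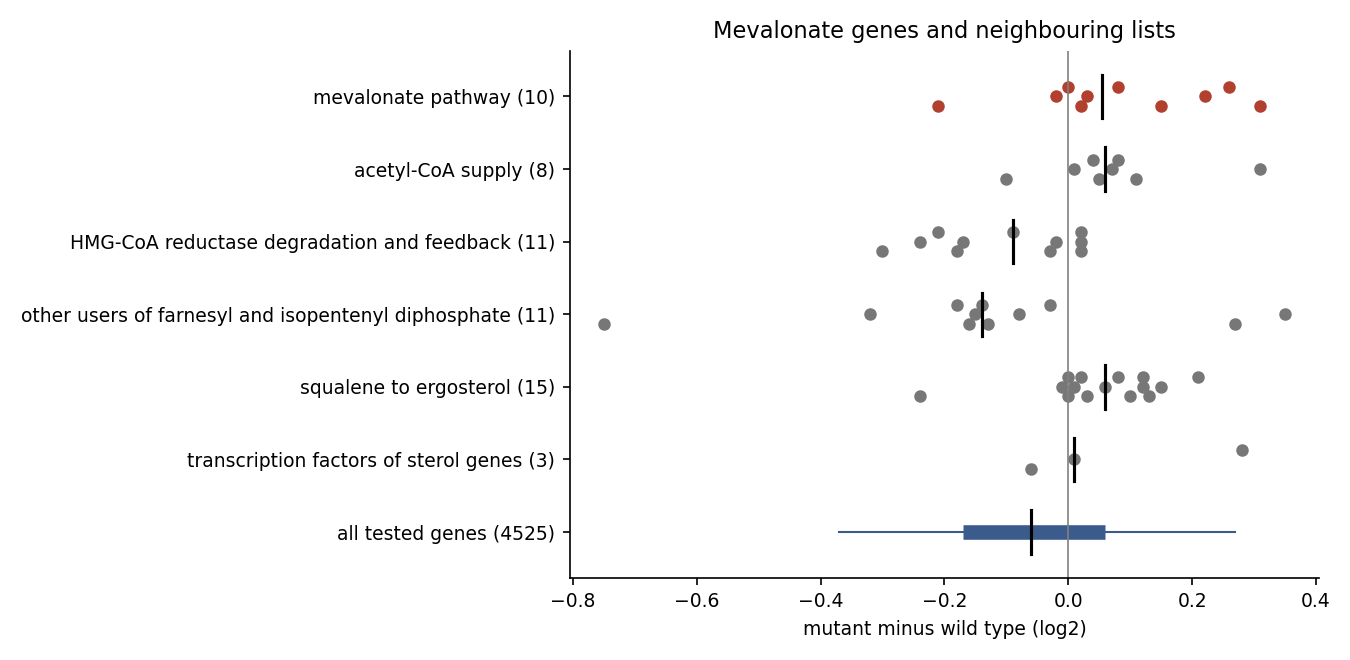
Difference between mutant and wild type (log2) for each tested gene of the mevalonate pathway (top, red) and of the 5 neighbouring lists (grey), with the number tested in brackets and a bar at each median; the bottom row gives all tested genes by their 5th to 95th percentile (line), 25th to 75th percentile (thick line) and median. The mevalonate genes lie between -0.21 and 0.31, and the point farthest left is RAM2 at -0.75.

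The non-member genes whose deviations over the 6 arrays lay nearest to the mean of the mevalonate genes were EDE1, INP53 and FAP7, at root mean square differences of 0.033, 0.034 and 0.036 on the log2 scale. The median over the 4515 other tested genes was 0.26. The mean of the mevalonate genes was itself nearly flat. It was 0.07, 0.05 and 0.01 on mutant arrays 1 to 3, and -0.08, 0 and -0.04 on wild-type arrays 1 to 3. Genes that vary little lie near such a mean, so these distances do not show likeness to any single mevalonate gene. By the systematic names, ERG13, HMG1, ERG12 and ERG8 lie on chromosome XIII, ERG10 and IDI1 on XVI, HMG2 on XII, MVD1 on XIV, ERG20 on X and ERG9 on VIII. The 4 genes of chromosome XIII had mean differences of 0.26, 0.00, 0.31 and 0.02, and whether these differ from each other was not tested.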

How the data were processed

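Total RNA of 6 yeast samples (3 mutant, 3 wild type) was labelled with biotin, per the labels' protocols. The deposited values are a linear intensity per probe set, which the authors computed using MAS5 according to the submitters' processing notes (per the labels), with no version, settings or detection calls stated. The columns shared a trimmed mean (125.1 to 125.2) and were used as deposited. Of 9335 probe sets, 60 were controls; of the others 6504 had 1 gene, 328 several and 2443 none, and only the first entered. Symbols were updated through the R64 gene table (all 5656 found). The brightest probe set stood for a gene. An offset of 2.7 (the 10th percentile) was added before log2, so changes of dim genes are understated. Genes under the 20th percentile of mean log2 were left out, and 4525 were tested.

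limma 3.58.1 under R 4.3.3 was used for the comparison (lmFit, eBayes with trend, two-sided), p-values being adjusted by Benjamini-Hochberg over all 4525 genes at 0.05. The fit with the group only is the one reported first. Replicate numbers in the labels were tested as a block, and arrays of like number were taken as pairs. Over genes, the deviations of such arrays correlated at 0.52, 0.59 and 0.86. Replicates 1 and 2 also correlated when crossed (0.51 and 0.65). The correlations thus set apart only replicate 3, and the pairing of replicates 1 and 2 rests on the labels. No label states separate cultures, so p-values reflect only the spread among these arrays, possibly technical, and precision is limited by their number.

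The members, lists and tests were chosen with earlier results of these data known. The text names the 10 members, HTB1, the passing genes of each list (or the 2 with the smallest p) and the 3 genes nearest in profile. RAM1, STE6, STE3, SAG1 and the dim genes of the pathway lists were named in addition. Alternatives were other normalizations, offsets, filters, priors and probe set rules, the block, and leaving out arrays or pairs. Steps were tested on simulated data. Promoter motifs were not analysed here.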

Additional observations from a re-analysis of the deposited data

How the results depend on the processing

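None of the 10 mevalonate genes passed the threshold under any alternative run on 1 value per gene, with or without the replicate block; the count was 1 of 13 probe sets when all probe sets were fitted with the replicate block (2757_g_at of ERG12), since the brightest probe set no longer stands for the gene. The block changed no other call of a mevalonate gene. It moved the count over all genes to 40 higher and 63 lower, against 0 higher and 1 lower without it, and 8 higher and 7 lower without replicate 3 or 71 higher and 136 lower without replicate 1. Over all alternatives with the block, 8 to 101 genes were higher and 7 to 148 lower; with the group only, 0 or 1 were higher and 1 lower, except in replicates 1 and 2 alone, with 20 higher and 33 lower. The median over the 10 genes stayed at 0.05 to 0.09 in alternatives that kept all arrays, and at -0.02 to 0.10 when arrays or pairs were left out. Over the probe sets of the members, where ERG12 enters more than once, the median was 0.11. ERG10, ERG13, ERG12 and ERG9 stayed above 0 and IDI1 below 0 in every alternative run on genes, but their size depended on single arrays: leaving out 1 array, ERG10 ranged from 0.05 to 0.34, ERG13 from 0.15 to 0.37, ERG12 from 0.16 to 0.40, ERG9 from 0.03 to 0.32 and IDI1 from -0.33 to -0.12. Leaving out a pair with the block, ERG10 ranged from 0.04 to 0.27, ERG13 from 0.19 to 0.31, ERG12 from 0.12 to 0.44, ERG9 from 0.12 to 0.29 and IDI1 from -0.32 to -0.13. Genes near 0 changed sign: HMG1 was -0.02 with quantile normalization and 0.00 (just below) in replicates 1 and 2 alone, and ERG20 was 0.02 with scaling to a common median, each also with the block. Leaving out single arrays, HMG1 ranged from -0.07 to 0.06, HMG2 from -0.01 to 0.19, ERG8 from -0.05 to 0.08, MVD1 from -0.06 to 0.12 and ERG20 from -0.15 to 0.11. Leaving out a pair with the block, HMG1 ranged from -0.07 to 0.08, HMG2 from -0.04 to 0.21, ERG8 from -0.09 to 0.08, MVD1 from -0.01 to 0.06 and ERG20 from -0.10 to 0.07. The cause was not tested. With 3 arrays per group, limma's 95% intervals with the group only reach at least 0.30 to either side, so changes within them are not excluded. A call at the adjusted threshold needed a larger change than that. With the group only, HTB1 was the 1 gene called, and the highest difference among all tested genes, 1.45, did not pass. The smallest change called in the fit with the block was 0.385 in size.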
